A study of Mus musculus with 31 samples.

Results

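Kidneys of mice with the Nbl1 genotype called HET in the labels were compared with wild-type (WT) kidneys after cisplatin. The members are all libraries labelled HET and cisplatin (8) and all libraries labelled WT and cisplatin (8), which makes 16 of the 31 libraries of the series, and every gene of the table was considered. All mice were males on the B6 background. Treatment ran for 4 weeks from the age of 8 weeks, and kidneys were taken 3 days later, at a stated age of 11 weeks. These figures conflict, since the treatment would end after that age, and the conflict could not be settled here. For the cisplatin dose, the kind of Nbl1 allele and any promoter or Cre behind it, the sources used here give no detail. The control arm of the study, 7 HET and 8 WT mice of the same sex and background given phosphate-buffered saline (PBS), is set beside the results where it helps to read them. Library titles hold a different animal number each, and every library was treated as 1 animal.

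Nbl1 encodes a secreted protein of the DAN family that binds bone morphogenetic proteins (BMPs) and keeps them from their receptors. BMPs signal through type I and type II receptor kinases and the Smad proteins, and the Id genes are their best-known early targets. In the kidney, Bmp7 is made by tubule cells and podocytes, and antagonists such as Grem1 and Nbl1 counter it. Cisplatin is a platinum drug that is taken up by the proximal tubule, cross-links DNA and injures that segment. The study asks whether a lower Nbl1 dose changes the kidney, and the comparison described here asks it in the injured organ.

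Nbl1 lies on the minus strand of chromosome 4 (GRCm38, chr4:139082284-139092993). Htr6, the gene of a serotonin receptor known from the brain, is the next protein-coding gene downstream on the same strand (chr4:139061108-139075570), and 6713 bases separate them. Since the results turn on these neighbours, the RefSeq windows around their outermost starts, 250 bases before to 50 after, are shown 5′ to 3′ on the minus strand of GRCm38.p6, with GC boxes (GGGCGG on either strand, overlapping matches included) in capitals. The Nbl1 window is chr4:139092921-139093220 and the Htr6 window is chr4:139075521-139075820.
Nbl1: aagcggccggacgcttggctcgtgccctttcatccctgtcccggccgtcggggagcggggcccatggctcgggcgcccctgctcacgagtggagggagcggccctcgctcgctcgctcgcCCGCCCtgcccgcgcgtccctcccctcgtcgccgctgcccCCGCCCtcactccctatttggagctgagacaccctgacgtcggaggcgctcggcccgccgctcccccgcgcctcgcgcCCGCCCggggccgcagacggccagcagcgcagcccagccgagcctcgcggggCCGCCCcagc
Htr6: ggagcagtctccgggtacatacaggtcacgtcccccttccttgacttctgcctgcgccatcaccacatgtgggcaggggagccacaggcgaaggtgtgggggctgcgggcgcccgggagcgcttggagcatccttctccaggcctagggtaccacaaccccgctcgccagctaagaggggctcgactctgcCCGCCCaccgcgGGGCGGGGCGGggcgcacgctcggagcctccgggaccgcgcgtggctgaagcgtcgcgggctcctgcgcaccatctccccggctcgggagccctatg
The Nbl1 window holds 4 GC boxes and 43 CpG dinucleotides, and the Htr6 window holds 3 GC boxes and 29 CpG dinucleotides. A GC box was found in 35.7% of the 32851 RefSeq mouse windows of 300 bases, whose median CpG count was 7. The TATA box letters TATAAA, searched on both strands, were in neither window and in 13.6% of all windows. These matches describe the windows and say nothing about which factors bind there.

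Across the kidney transcriptome, 1 gene was past the threshold. Htr6 was higher in HET than in WT kidneys, which is 0.0055% of the 18183 genes tested, and 0 genes (0%) were lower, at an adjusted p of 0.05 in edgeR's quasi-likelihood test with Benjamini-Hochberg adjustment. The next smallest adjusted p after Htr6 was 0.972. Without adjustment, 319 genes (1.75%) had a p under 0.05 and a higher HET level and 374 (2.06%) a lower one. The median difference between HET and WT was 0.00 on the log2 scale, and 50.3% of the tested genes had a positive difference. DESeq2, run on the same libraries with 32829 genes tested, also gave 1 higher and 0 lower genes, with 411 and 583 at an unadjusted p under 0.05.

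The size of difference that these 16 kidneys could show is given by the intervals. The median standard error (SE) of the log2 difference was 0.12. For 93.1% of the tested genes the whole 95% interval lay within 1 log2 unit of 0, and this share was 96.3% among the 15756 genes with a mean of at least 1 CPM (counts scaled to a library total of 1e6) in the higher group. A change of more than a doubling is thus outside the interval for most genes, one gene at a time. A missed threshold does not show that the genotypes were equal. The interval lay within a 1.5-fold change either way for 74.1% of the genes, but not for the others.

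**Figure D1:**
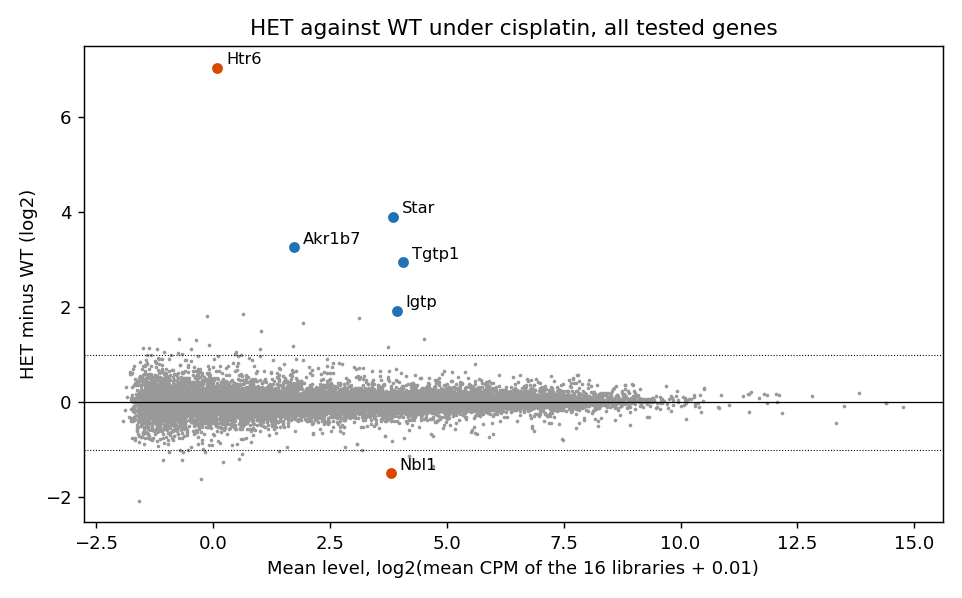
Each point is 1 of the 18183 tested genes; the x axis gives its mean level as log2(mean CPM of the 16 cisplatin libraries + 0.01) and the y axis the HET minus WT difference in log2 units, with dotted lines at 1 unit either way. Htr6 (7.03) passed the threshold, Nbl1 (−1.49) did not, and the 4 genes in blue came down to 0.39 or less without 1 library.

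Htr6 reads were present in every HET kidney. The 8 HET cisplatin libraries held 15 to 155 Htr6 counts each, with a median level of 1.81 CPM (lowest 0.48, highest 4.52). The 8 WT cisplatin libraries held 3 counts in all, and 6 of them held 0, so their levels ran from 0 to 0.0677 CPM. Every HET library was above every WT library. The ratio of the summed Htr6 counts, 569 in HET against 3 in WT, was 175 with a 95% interval of 59.6 to 852 for counting error only. The fitted log2 difference was 7.03 (SE 0.64, adjusted p = 5.67e-05, edgeR's quasi-likelihood test with Benjamini-Hochberg adjustment), a size that depends on the prior count since WT was near 0. An exact two-sided permutation test over the 8 and 8 libraries gave p = 0.000155, the smallest that the 12870 arrangements allow. Htr6 was singled out by earlier results of these same data, so neither this p nor the full split of the libraries adds independent support. Htr6 was low in absolute terms in all of these kidneys.

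Nbl1 itself stood lower in HET kidneys, with overlap. HET cisplatin libraries had 0.861, 8.69 and 13.9 CPM as lowest, median and highest level, and WT cisplatin libraries had 10.7, 20.96 and 26.2 CPM. HET 8 (13.9 CPM) and HET 7 (10.8 CPM) were above the lowest WT library, WT 6 (10.7 CPM), and the other 6 HET libraries were below every WT library. HET averaged 7.34 CPM ± 4.7 and WT 20.6 CPM ± 4.8 (SD, n = 8 each), so the HET mean was 35.5% of the WT mean. The log2 difference was −1.49 (SE 0.42, 95% interval −2.38 to −0.61), with an adjusted p of 0.972 in edgeR's quasi-likelihood test with Benjamini-Hochberg adjustment. Nbl1 therefore did not pass across all genes, while the exact permutation test of Nbl1 alone gave p = 0.000466 (two-sided, prior count of 2 on log2 CPM).

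The HET libraries did not form a uniform group at this locus. HET 3 and HET 4 had 1.08 and 0.861 CPM of Nbl1, which is 5.22% and 4.17% of the WT mean. The same libraries had the most Htr6, with 155 and 129 counts. The other 6 HET libraries had 22.6% to 67.5% of the WT mean of Nbl1 and 15 to 65 Htr6 counts, and their mean Nbl1 was 9.46 CPM ± 3.1 (SD, n = 6), or 45.8% of the WT mean. HET 6, lowest among these 6 in Nbl1 with 4.68 CPM, was also lowest in Htr6. The labels give these kidneys no other genotype, so HET 3 and HET 4 stand here for the libraries labelled that way. Without HET 3 and 4 the log2 difference of Htr6 was 6.49 (adjusted p = 8.26e-05) and that of Nbl1 was −1.13 (adjusted p = 0.999), both by edgeR's quasi-likelihood test with Benjamini-Hochberg adjustment.

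Under PBS both genes had values on the same sides. HET PBS libraries had a median Nbl1 of 3.64 CPM (0.106 to 4.20) and WT PBS libraries 6.37 CPM (3.71 to 7.90). HET PBS 1 and HET PBS 6 were at 0.106 and 0.434 CPM of Nbl1 and the other 5 at 3.26 to 4.20 CPM. HET PBS 1 and 6 held 22 and 29 Htr6 counts, before scaling for depth. HET PBS 2, 5 and 7 held 20, 21 and 21, so HET PBS 1 did not stand apart in Htr6. Htr6 was at 7 to 29 counts in the HET PBS libraries and at 0 or 1 in 7 of the WT PBS libraries. The library labelled WT PBS 6 had 22 Htr6 counts and the lowest WT PBS level of Nbl1, 3.71 CPM, so its reads at this locus go against its label. Neither gene passed across all genes under PBS (Nbl1 −1.23, adjusted p = 0.778, and Htr6 2.62, adjusted p = 0.567, edgeR's quasi-likelihood test with Benjamini-Hochberg adjustment).

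**Figure D2:**
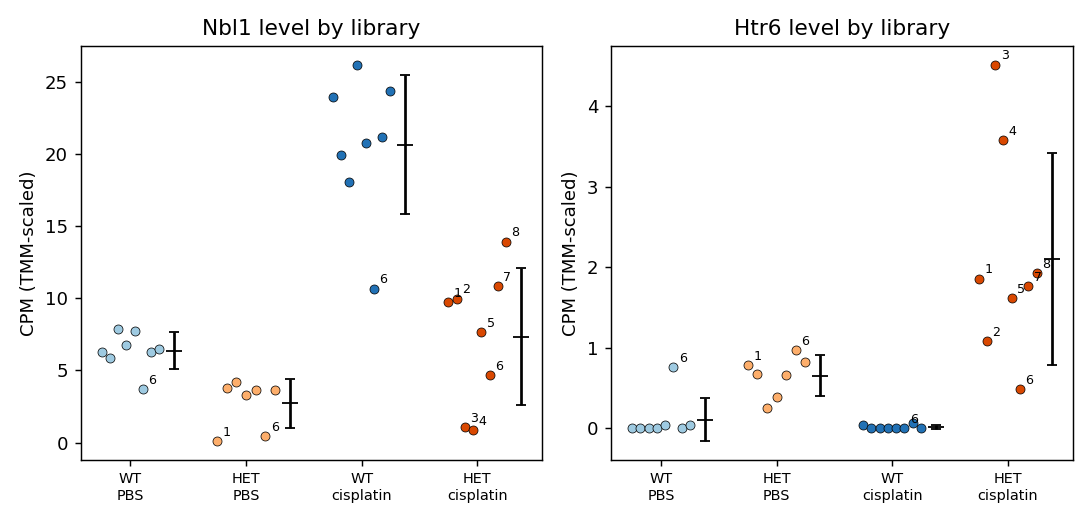
Points are libraries, with replicate numbers beside those named in the text; the y axes give TMM-scaled CPM of Nbl1 and Htr6, and the bars to the right of each group give mean ± SD. Among the cisplatin libraries, HET 3 and 4 are lowest in Nbl1 and highest in Htr6. WT PBS 6, with 22 counts, is the WT library with the most Htr6 reads.

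Around the locus the differences were small. Within 500 kb of Nbl1, no tested gene other than Htr6 passed the threshold. Micos10, a subunit of the mitochondrial cristae organising complex that lies 8820 bases upstream of Nbl1, was at 72.0 CPM ± 5.3 in HET and 69.9 CPM ± 4.4 in WT (SD, n = 8 each; log2 difference 0.04, SE 0.05). Tmco4, on the far side of Htr6, was at 21.2 CPM ± 2.4 and 20.7 CPM ± 1.2 (SD, n = 8 each; log2 difference 0.03, SE 0.06). The widest difference among these neighbours was in Pla2g5, a secreted phospholipase, with a log2 value of 0.44 (SE 0.25, adjusted p = 0.972, edgeR's quasi-likelihood test with Benjamini-Hochberg adjustment). Gm45533, an antisense transcript annotated between Htr6 and Nbl1, had 0 counts in both cisplatin groups. The sources used here do not state the strand setting of the counting, so reads of sense and antisense genes could not be separated.

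Before the gene groups, some libraries need naming. In a principal component analysis of the 2000 most variable genes of the 16 libraries, PC1 held 30.9% and PC2 13.4% of the variance, and HET and WT libraries were mixed on both. HET 6 stood at −57.4 on PC1 and WT 6 at −27.0, with the nearest other library at −17.2. At the other end of PC1 stood WT 4 at 38.3, with the nearest other library, HET 8, at 21.6. WT 4 also had the lowest mitochondrial share of counts of the 16 libraries (2.53%). HET 6 had the least Havcr1 of all 16, and it was the highest HET library in Lrp2, as WT 6 was the highest WT library. HET 4 carried genes of the adrenal gland: Star, the steroidogenic cholesterol transporter, was at 205 CPM there and at 1.22 to 2.47 CPM in the other 15 libraries. Cyp11b1 and Cyp21a1, steroid hydroxylases of the adrenal cortex, were at 147 and 166 CPM in HET 4 and at most at 0.102 CPM in the other 15 cisplatin libraries. The summed adrenal list reached 715 CPM in HET 4 and stood at 1.71 to 2.74 CPM in WT.

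Total counts per library, in units of 1e6, ran from 24.7 to 31.9. They averaged 29.3 ± 1.85 in HET and 26.8 ± 1.42 in WT (SD, n = 8 each), a difference of 2.47 with an adjusted p of 0.0448 over 4 library measures (exact permutation test), and it missed the threshold in 12 of the 16 fits that left out 1 library. The mitochondrial share of counts was 3.87% ± 0.66 in HET and 3.44% ± 0.77 in WT (SD, n = 8 each; adjusted p = 0.315, exact permutation test). Kidney markers were present in every library: Umod of the thick ascending limb was at 354 to 1832 CPM and Aqp2 of the collecting duct at 151 to 291 CPM. Summed lists of other tissues were low for T and natural killer cells (0.777 to 3.36 CPM) and skeletal muscle (0.535 to 1.98 CPM). The erythrocyte list summed to 6.29 to 83.0 CPM, with 83.0 CPM in HET 6 and 49.1 CPM in WT 6. Of it, Slc4a1, an anion exchanger that intercalated cells of the kidney also use, made up 2.11 to 55.5 CPM. WT 1 and WT 2 carry animal numbers outside the 600 series, in which all HET cisplatin animals fall. Without these WT libraries there were 1 higher and 0 lower genes.

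**Figure D3:**
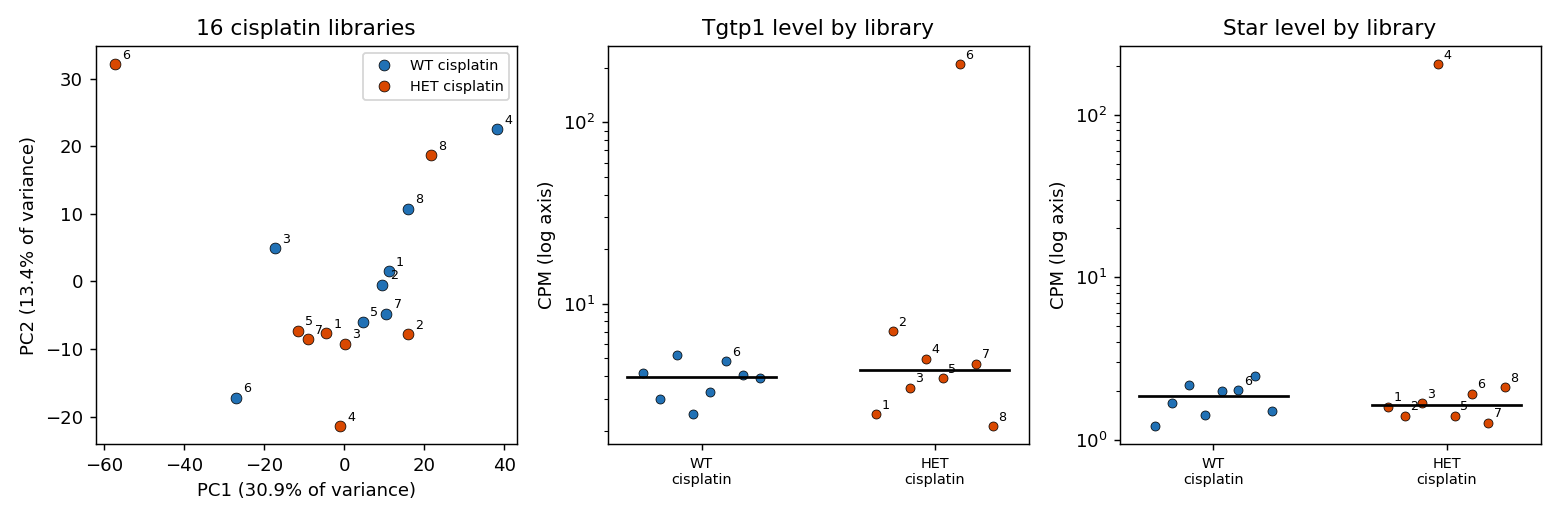
The left panel places the 16 cisplatin libraries on the principal components of their 2000 most variable genes; the other panels give Tgtp1 and Star per library as CPM on a log axis, with bars at group medians and replicate numbers beside points. Tgtp1 reached 210 CPM in HET 6 and Star 205 CPM in HET 4, each far above the other 15 libraries.

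In all, 43 tested genes differed by at least 1 log2 unit, 26 higher and 17 lower in HET, and 36 of them came below 1 unit when 1 library was left out. That library was HET 6 for 12 of the 36 genes, HET 4 for 7 and WT 1 for 7, and 1 of 6 others for the rest, several of which were close to 1 unit to begin with. The 7 that stayed at 1 unit or more in all 16 such fits were Htr6, Nbl1, Ces1g, Gm46223, Gm7336, Gm45234 and Lenep, a set found after their values were seen. Ces1g, a carboxylesterase, had a median of 3.45 CPM in HET (0.715 to 6.75) and 0.969 CPM in WT (0.329 to 2.18), with a log2 difference of 1.49 (SE 0.48, adjusted p = 0.972, edgeR's quasi-likelihood test with Benjamini-Hochberg adjustment). The HET and WT ranges of Ces1g overlapped, and its PBS difference was −0.10.

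The interferon-γ-inducible GTPases, also chosen after their values were seen, show how 1 kidney acted on a group mean. Tgtp1 was at 210 CPM in HET 6 and at 2.11 to 7.06 CPM in the other 15 libraries, and its log2 difference of 2.94 (SE 0.95) became 0.08 without HET 6. Igtp was at 146 CPM in HET 6 and at 5.35 to 8.09 CPM in the others, and its difference went from 1.91 to 0.07. Irgm2, of the same family, went from 1.33 to 0.07. Tgtp2 and Iigp1 kept more of their difference without HET 6, going from 1.66 to 0.62 and from 1.17 to 0.23. Star behaved with HET 4 as Tgtp1 did with HET 6, from 3.89 (SE 1.18) to −0.16 without HET 4. None of these genes passed the threshold with or without those libraries.

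Among genes below the called one, the 10 smallest p-values in each direction with a mean of at least 1 CPM describe the margin of the comparison; all had an adjusted p of 0.972 in edgeR's quasi-likelihood test with Benjamini-Hochberg adjustment, apart from Htr6. Aqp8, a water and peroxide channel, had 1.31, 1.94 and 3.55 CPM as lowest, median and highest level in HET and 0.428, 1.03 and 1.36 CPM in WT (log2 difference 0.98, SE 0.23). Of its HET libraries, 7 were above every WT library. Aqp8 was picked by its p, and the share of all tested genes with such a split was not counted, so the split adds no support. Cck, the gut and brain peptide cholecystokinin, was at 1.54 CPM (median; 1.27 to 3.44) in HET and 0.999 CPM (0.513 to 1.70) in WT (log2 difference 0.98, SE 0.26). Others on the higher side, Sgsm2, Coq6 of ubiquinone synthesis, Isyna1 of inositol synthesis, Mov10, Plek2 and the collagen prolyl hydroxylase P4ha1, had log2 differences of 0.20 to 0.39.

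On the lower side, Kng1, the kininogen gene, was at 5.72 CPM (median; 4.63 to 7.09) in HET and 7.78 CPM (6.48 to 10.5) in WT, a log2 difference of −0.52 (SE 0.12). Kcnh1, which encodes a voltage-gated potassium channel (chr1:192190774-192510159), had a median of 2.14 CPM (0.544 to 3.27) in HET and 3.80 CPM (3.23 to 5.41) in WT, a log2 difference of −0.94 (SE 0.24). Of the Kcnh1 HET libraries, 7 were below every WT library, and HET 7 (3.27 CPM) exceeded WT 3 and WT 5. Kcnh1 was picked by its p as well, so the same limit holds for this split. In the PBS arm the Kcnh1 difference was −0.96 (adjusted p = 0.67, edgeR's quasi-likelihood test with Benjamini-Hochberg adjustment). The other names on this side besides Nbl1 were Serpinb1a, Snhg14, the RNA editing enzyme Adarb1, Kif13a, the kinase Stk39 that acts on salt cotransporters, Arhgap8 and Ager, with log2 differences between −0.51 and −0.19. Under PBS the genes named here on both sides, apart from Nbl1, Htr6 and Kcnh1, lay between −0.23 (Cck) and 0.43 (Aqp8), and some had the opposite sign, such as Cck, Sgsm2 (−0.10), Plek2 (−0.17), Adarb1 (0.13) and Arhgap8 (0.23). Only 2 tested genes (0.011%) had every HET library below every WT library, B130021K23Rik and Kremen1, both named after their values were seen, and 1 gene (0.0055%), Htr6, had every HET library above.

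Of the BMP pathway genes, Nbl1 included, no member passed the threshold in any of the 4 lists. The ligand list counts Bmp1, a protease in spite of its name, whose difference of −0.13 is also the list median. Of the 15 tested members, 5 had a positive difference, beside 50.3% and a median of 0.00 over all tested genes. Bmp7 was at 25.3, 30.4 and 58.9 CPM (lowest, median, highest) in HET and 24.4, 27.9 and 35.5 CPM in WT, a log2 difference of 0.22 (SE 0.14). The highest Bmp7 library was HET 6, and the groups overlapped. Bmp4 (−0.10, SE 0.06) and Gdf10 (0.31, SE 0.16) lay on either side of 0, and Gdf15, a stress-induced member that is also a p53 target, was at −0.60 (SE 0.31).

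Among the antagonists, Nbl1 included, 11 of 15 had a positive difference with a median of 0.05. Grem1, the antagonist tied to injured and fibrotic kidney, was at 3.71, 8.10 and 39.7 CPM in HET and 6.03, 8.85 and 25.6 CPM in WT, a log2 difference of 0.03 with a 95% interval of −0.93 to 0.99. Grem1 thus remained poorly determined, with HET 8 well above all other libraries. Twsg1, a modulator of BMP binding, was at 113 CPM ± 8.4 and 107 CPM ± 5.2 (SD, n = 8 each; log2 difference 0.08, SE 0.05). Fst, the activin antagonist follistatin, was at −0.59 (SE 0.27, adjusted p = 0.972, edgeR's quasi-likelihood test with Benjamini-Hochberg adjustment).

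Receptors and Smads varied little: 3 of 16 had a positive difference, the median was −0.05 and the values ran from −0.18 to 0.17. The activin receptors Acvr2a (−0.09, SE 0.06) and Acvr2b (−0.16, SE 0.09) and the pseudoreceptor Bambi (0.17, SE 0.11) were among those with the smallest p.

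Of the BMP target genes, 1 of 10 had a positive difference and the median was −0.13. Id3, an inhibitor of helix-loop-helix factors, was at 19.9, 31.9 and 59.3 CPM in HET and 28.9, 54.9 and 76.3 CPM in WT, a log2 difference of −0.62 (SE 0.21, adjusted p = 0.972, edgeR's quasi-likelihood test with Benjamini-Hochberg adjustment). The Id3 groups overlapped, with WT 6 the lowest WT library. Id1 was at 14.2, 19.6 and 36.8 CPM in HET and 15.8, 27.4 and 38.2 CPM in WT (−0.35, SE 0.19), and Id4 was at −0.44 (SE 0.21). Under PBS the differences were −0.16 for Id3, −0.08 for Id1 and 0.06 for Id4. In whole kidney, fewer cells of a type and less RNA per cell cannot be told apart, here and in every result below.

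Proximal tubule genes mostly had positive differences, within a wide spread between kidneys. Of the S1 and S2 list, 21 of 22 members had a positive difference with a median of 0.27, and of the S3 list 13 of 14 with a median of 0.14; no member passed the threshold. Without HET 6 the counts were 17 of 22 and 7 of 14, and the medians 0.08 and 0.03. Without both HET 6 and WT 6 they were 21 of 22 and 12 of 14, and 0.29 and 0.18. The members of these lists were measured in the same kidneys, so they are not independent of each other.

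Lrp2, which encodes the endocytic receptor megalin, was at 490, 1603 and 2684 CPM (lowest, median, highest) in HET and 564, 1145 and 2871 CPM in WT. The log2 difference was 0.29 with a 95% interval of −0.38 to 0.96, and the groups overlapped over almost their whole range. Slc5a2, the glucose transporter SGLT2, was at 101 CPM ± 40 in HET and 70.0 CPM ± 33 in WT (SD, n = 8 each; log2 difference 0.53, SE 0.35). Kap, the androgen-regulated kidney protein of male mice, went the other way, at 169, 225 and 452 CPM in HET and 226, 357 and 473 CPM in WT (−0.40, 95% interval −0.81 to 0.02). Of the 13 androgen-maintained kidney genes, 10 had a positive difference, the list median was 0.05, and Kap had the lowest value. For scale, PBS kidneys had 6019 to 8005 CPM of Lrp2 and 14660 to 17166 CPM of Kap.

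Injury genes did not differ past the threshold. Havcr1, the KIM-1 injury marker of proximal tubule, was at 31.6, 285 and 514 CPM in HET and 180, 241 and 438 CPM in WT, a log2 difference of 0.13 with a 95% interval of −0.58 to 0.85. Lcn2, the NGAL injury marker, was at 81.9, 154 and 389 CPM in HET and 121, 234 and 483 CPM in WT, a log2 difference of −0.55 with a 95% interval of −1.16 to 0.05. In both genes the groups overlapped, and in PBS kidneys no library exceeded 4.83 CPM of Havcr1 or 5.31 CPM of Lcn2. Over the tubular injury list, 6 of 27 members had a positive difference with a median of −0.11, and 12 of 27 with a median of −0.05 without HET 6. Mmp7, a matrix protease (−1.26, SE 0.50), became −0.67 without WT 1. Clu, the secreted chaperone clusterin (−0.32, SE 0.15), and Krt7, a keratin of simple epithelia (−0.25, SE 0.12), also had negative values.

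Genes of the DNA damage response were not called. Cdkn1a, the p53-driven inhibitor of the cell cycle, was at 495, 667 and 775 CPM in HET and 364, 675 and 715 CPM in WT, a log2 difference of 0.06 with a 95% interval of −0.19 to 0.30. Its PBS levels were 8.95 to 55.4 CPM in HET and 2.60 to 26.4 CPM in WT. Of the p53 targets, 19 of 32 had a positive difference with a median of 0.03, of the DNA repair genes 10 of 26 with a median of −0.02, and of the cell cycle genes 8 of 27 with a median of −0.04. No member of these lists passed the threshold.

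**Figure D4:**
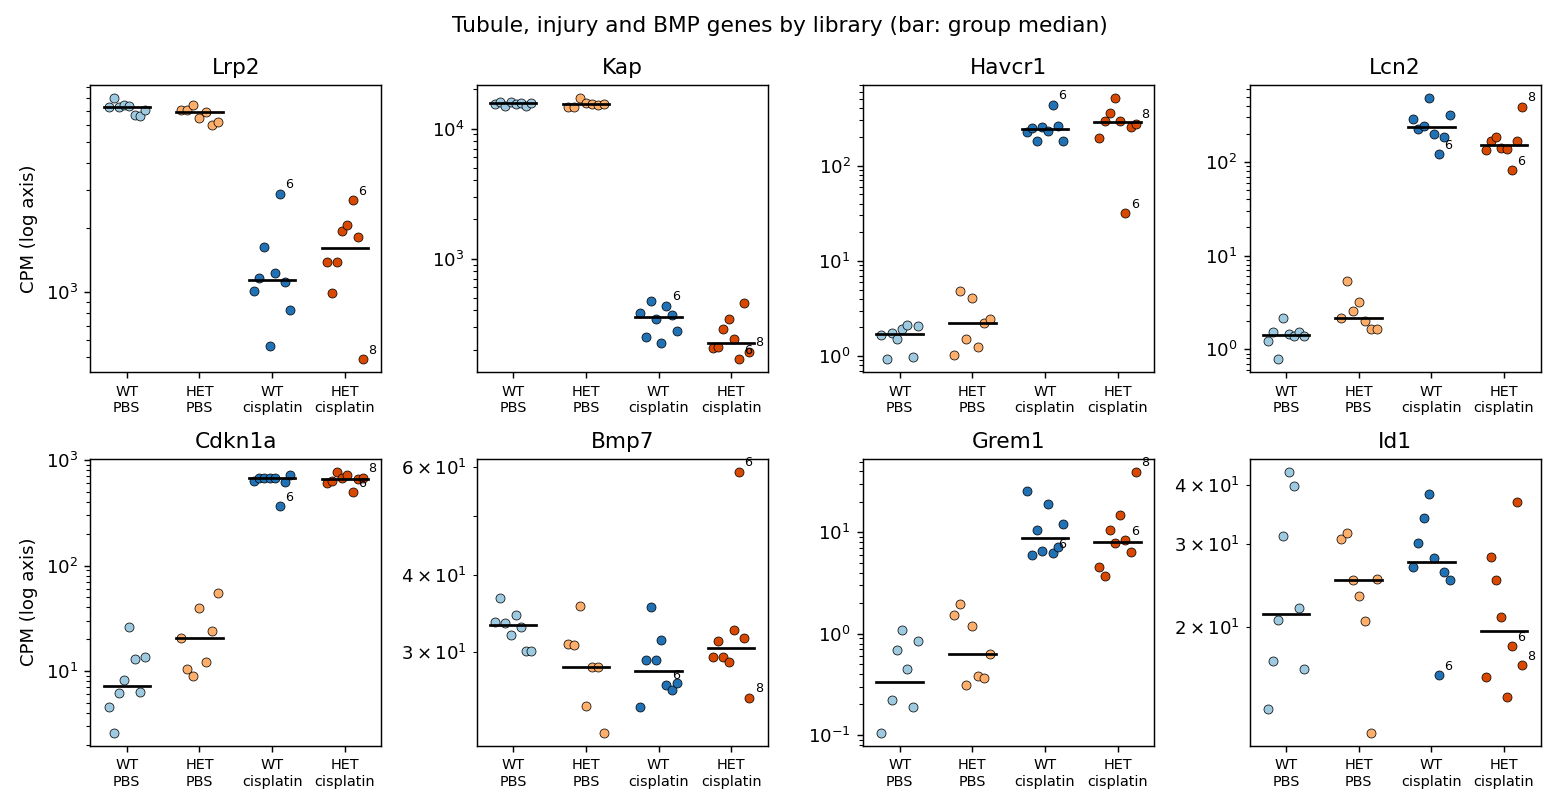
Each panel gives 1 gene in all 31 libraries as TMM-scaled CPM on a log axis, with points for libraries, bars for group medians and numbers beside libraries 6 and 8 of the cisplatin groups as named in the text. PBS and cisplatin groups lie far apart for Lrp2, Kap, Havcr1, Lcn2 and Cdkn1a, while HET and WT overlap within cisplatin in all 8 genes.

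Transporters that move platinum out of or into tubule cells were not called either. Of 17 cisplatin handling genes, 11 had a positive difference with a median of 0.10. Abcc2, an apical export pump, was at 925 CPM ± 214 in HET and 735 CPM ± 206 in WT (SD, n = 8 each; log2 difference 0.33, SE 0.16). The copper transporters Atp7a (−0.07, SE 0.05) and Slc31a2 (−0.16, SE 0.12) lay near 0.

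Mitochondrial and lipid genes had small positive values. All 13 mitochondrially encoded messages had a positive difference (median 0.17; 11 of 13 and 0.07 without HET 6), as had all 18 tested oxidative phosphorylation genes (median 0.10; 16 of 18 and 0.04 without HET 6). The cholesterol synthesis list had 13 of 16 positive with a median of 0.15, and 15 of 16 with a median of 0.16 without HET 6. The mitochondrial list moves with the mitochondrial share of counts given above. HET 6 had the largest share of all 16 (5.12%) and WT 6 the next (4.98%). The difference in share was 0.247 percentage points without HET 6 and 0.645 without WT 6. The list values without HET 6 alone therefore show the part of that kidney with WT 6 still in.

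Immediate early genes, transcription factors that respond within minutes to stress or handling, had 0 of 14 positive differences and a median of −0.37, or −0.27 without HET 6. Ier2 was at −0.54 (SE 0.38) and Klf6 at −0.33 (SE 0.23), and no member had a p under 0.05. Under PBS the median of this list was −0.01.

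Immune genes were not called either. Of the interferon-stimulated list, 18 of 20 had a positive difference with a median of 0.28, and the same count with a median of 0.24 without HET 6. Its summed level was 188, 215 and 362 CPM (lowest, median, highest) in HET and 178, 200 and 209 CPM in WT. Bst2, a virus-tethering membrane protein, was at 7.46 CPM ± 0.76 in HET and 6.37 CPM ± 0.41 in WT, and Rsad2, an antiviral enzyme, at 17.8 CPM ± 2.6 and 14.5 CPM ± 2.8 (SD, n = 8 each). Both had an adjusted p of 0.972 in edgeR's quasi-likelihood test with Benjamini-Hochberg adjustment. Under PBS the median of the list was −0.09, on the other side of 0.

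Macrophage genes had 3 of 17 positive differences and a median of −0.25 (−0.14 without HET 6). Lyz2, lysozyme of myeloid cells, was at 8.20, 39.4 and 58.3 CPM in HET and 28.9, 51.0 and 119 CPM in WT (−0.59, SE 0.31), with HET 6 the lowest and WT 1 the highest library. The summed macrophage list was 65.4 to 304 CPM in HET and 182 to 414 CPM in WT. Matrix and fibrosis genes had 13 of 21 positive and a median of 0.02, while the stiffness-responsive Ccn2 (−0.54, SE 0.22) and the collagen cross-linking enzyme Lox (−0.70, SE 0.33) had negative values.

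Other segments and neighbouring tissues gave no called gene. Thick ascending limb genes had 8 of 12 positive (median 0.08), distal convoluted tubule genes 5 of 9 (median 0.00), principal cell genes 3 of 10 (median −0.08), podocyte genes 6 of 10 (median 0.02) and endothelial genes 8 of 11 (median 0.03). The distal calcium buffer Calb1 was at −0.38 (SE 0.16) and the sodium channel subunit Scnn1a at −0.32 (SE 0.14). The summed adipose list was 57.6 to 330 CPM in HET and 103 to 281 CPM in WT, and its fatty acid carrier Fabp4 was at 0.57 (SE 0.27); without HET 4 the median of this list went from 0.17 to −0.02. The part of adhering fat in these values was not tested.

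**Figure D5:**
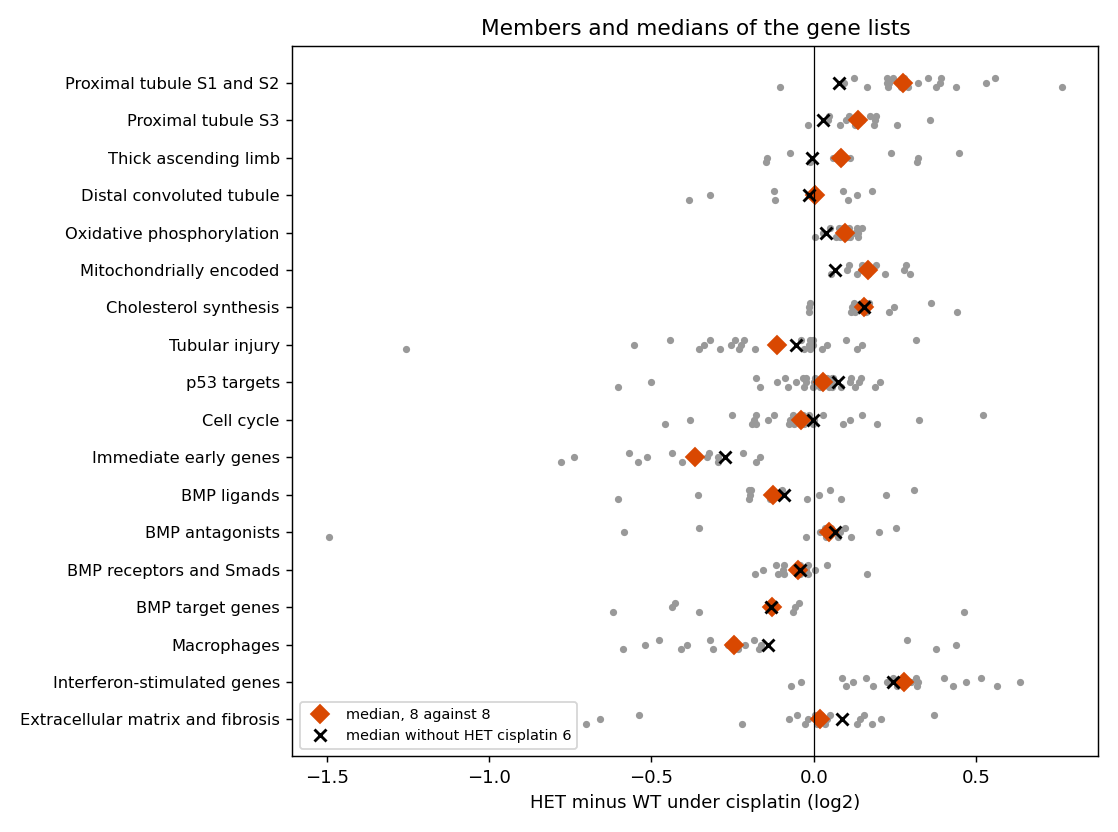
Grey points are the tested members of 18 lists, placed by their HET minus WT log2 difference under cisplatin; diamonds are list medians over 8 against 8 libraries and crosses are medians without HET 6. Medians lie between −0.37 (immediate early genes) and 0.28 (interferon-stimulated genes). Those of both proximal tubule lists come closer to 0 without HET 6, but not without both HET 6 and WT 6.

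Whether the genotype difference itself depended on treatment was tested in a fit of all 31 libraries. Of 19268 genes, 0 (0%) passed the threshold for the interaction in edgeR's quasi-likelihood test with Benjamini-Hochberg adjustment, and 1079 (5.6%) had an unadjusted p under 0.05; DESeq2, which tested 34823 genes, gave 0 and 1333. HET against WT under PBS gave 0 genes (0%) in the same fit, with 968 (5.02%) at an unadjusted p under 0.05. For Lcn2 the interaction was −1.43 on the log2 scale (adjusted p = 0.725), which sets a difference of −0.55 under cisplatin against 0.88 under PBS. For Nbl1 the interaction was −0.27 (adjusted p = 0.974), with differences between genotypes of −1.49 under cisplatin and −1.23 under PBS. For Htr6 it was 4.40 (adjusted p = 0.725), and 1.14 (adjusted p = 0.992) without the 5 libraries whose reads at the locus stand apart (HET cisplatin 3 and 4, HET PBS 1 and 6 and WT PBS 6). These libraries were picked by their reads at this same locus, so the smaller Htr6 value follows in part from that choice.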

How the data were processed

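Bulk mRNA libraries of 31 mouse kidneys (KAPA mRNA HyperPrep, RNA integrity number over 8, per the labels' protocols) were used, of which the 16 cisplatin libraries enter the main comparison. The deposited table gives 55487 genes with 3 values per library. The authors deposited expected counts, not normalized, of which 12.5% are not whole, and they were rounded here. The authors deposited TPM values, used here in 1 alternative as log2(TPM + 1). The FPKM values deposited by the authors were not used. The tools fastp, STAR and featureCounts, with no versions, and the genome GRCm38 (mm10) are named per the submitters' processing notes. The strand setting and the tool behind the fractional counts: not given in the sources used here. Coordinates come from GENCODE M21 of GRCm38, in which 55141 gene identifiers were found, and promoter sequences from RefSeq tables of GRCm38.p6.

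The test was the quasi-likelihood test of edgeR 4.0.16 under R 4.3.3, after filterByExpr and TMM scaling, with no covariate and Benjamini-Hochberg adjustment over the 18183 genes kept, at a threshold of 0.05. The interaction and PBS values come from a fit of all 31 libraries. Printed CPM values were computed from the counts on the TMM scale of the 31 libraries. Single values were compared by exact two-sided permutation tests. Intervals of count ratios cover counting error only. The scripts were tested on simulated data. Since each library was taken as 1 animal from its number, p-values measure the spread between these libraries.

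Genes were named by a rule: Nbl1, Htr6 and genes within 500 kb; genes past the threshold; the 10 smallest p in each direction with a mean of at least 1 CPM and a regular symbol; up to 4 smallest p in each of 41 lists; and Havcr1, Lcn2, Lrp2, Cdkn1a, Kap, Id1, Bmp7 and Grem1. A few genes that the rule names are not reported here. Members, lists, tests and alternatives were chosen with earlier results of these data known. Alternatives used DESeq2 1.42.0, limma 3.58.1, sva 3.50.0, other scalings and filters, the 600 series of animal numbers alone, the sequencing number as covariate, and left-out libraries. Leaving out HET 6 with WT 6, and list medians without HET 6 or HET 4, were chosen after seeing the data. Medians without HET 6 alone still hold WT 6, which lay towards the same end of PC1 in the other group.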

Additional observations from a re-analysis of the deposited data

Results flagged for a closer look

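Libraries far from the other 7 of their group were found in 7 of 64 groups of 8 values looked at, by the gap to the nearest library relative to the whole range. Chance gives about 1 in 20 for independent, normally distributed values. These groups come from the same 16 kidneys and some genes were picked by their p, so that rate is only a rough guide. WT 6 accounts for 3 of them: Havcr1 at 438 CPM (next 261), Lrp2 at 2871 CPM (next 1622) and Cdkn1a at 364 CPM (next 625.8), so the WT kidney with the most Lrp2 and the least Cdkn1a also had the most Havcr1. HET 8 accounts for another 3: Lcn2 at 389 CPM (next 185), Grem1 at 39.7 CPM (next 14.8) and Mov10 at 13.7 CPM (next 16.3). HET 6 had Bmp7 at 58.9 CPM (next 32.6).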

How the results depend on the processing

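Leaving out any 1 of the 16 libraries kept Htr6 as the called gene, with a log2 difference of 6.77 to 7.95 and 1 higher and 0 lower genes. Under limma on log2(TPM + 1) the Htr6 difference was 0.81 (adjusted p = 0.0733) and 0 genes were higher; a pseudocount of 1 compresses low genes. With at least 1 CPM required in 8 libraries 0 genes were higher, since Htr6 was not tested. The other 11 settings besides leaving out 1 library kept 1 higher gene. No setting gave a lower gene. Nbl1 was below 0 and past no threshold throughout: −1.69 to −1.32 with 1 library left out and −2.50 to −1.13 otherwise (adjusted p 0.31 to 1). Interaction counts were 0 in each of 4 alternatives.

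The difference in total counts, in units of 1e6, was 2.10 to 2.82 with 1 library left out, 2.60 (adjusted p = 0.0599, exact permutation test) without the WT animals outside the 600 series and 1.75 (adjusted p = 0.192, exact permutation test) without HET 3 and 4; the cause was not tested. The difference in mitochondrial share was 0.247 to 0.645 percentage points with 1 library left out. Among 200 other named genes, none of them called in the main fit, 5649 of 5784 values kept their sign and their side of the threshold. The other 135 values, in 36 genes, changed sign. Since the next smallest adjusted p after Htr6 was 0.972 (edgeR's quasi-likelihood test), staying short of the threshold is a weak check.

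Counts of genes at an unadjusted p under 0.05 were 1255 higher and 1200 lower under limma voom with quality weights, 808 and 907 with no low-count filter (32829 genes), 767 and 713 without WT 6, and 663 and 721 without HET 6 and WT 6. No paired analysis was possible because the labels give the groups no shared replicate numbers; the numbers used here follow accession order. Htr6 sat at 3 counts in all WT cisplatin libraries together, so depth limits its fold.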

Other observations

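The genes of the HET 6 kidney include more than interferon-γ-inducible GTPases. Ciita, the transcriptional activator of major histocompatibility class II genes, was at 24.3 CPM in HET 6 and at 0.22 to 4.21 CPM in the other 15 cisplatin libraries, and Gbp6, a guanylate-binding protein, was at 79.2 CPM against 2.26 to 5.36 CPM. Iigp1, of the same family as Irgm2, was at 81.2 CPM against 6.70 to 13.8 CPM. At the same time HET 6 had the lowest summed macrophage list of the 16 libraries (65.4 CPM). These genes were chosen after their values were seen.

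The HET 4 kidney held a medullary adrenal gene as well as cortical ones. Th, tyrosine hydroxylase of catecholamine synthesis, was at 7.47 CPM there and at most 0.0672 CPM in the other 15 cisplatin libraries. Akr1b7, an aldo-keto reductase abundant in mouse adrenal cortex, was at 42.1 CPM there and at most 1.15 CPM in those 15.

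Kremen1, a receptor of the Wnt antagonists of the Dickkopf family, had 31.4 to 37.97 CPM in HET and 38.1 to 42.2 CPM in WT, groups that do not overlap although the log2 difference was −0.13 (adjusted p = 0.972, edgeR's quasi-likelihood test with Benjamini-Hochberg adjustment). B130021K23Rik had 1.44 to 2.18 CPM in HET and 2.31 to 3.48 CPM in WT, with a log2 difference of −0.57 and the same adjusted p. Both were chosen after their values were seen.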
